A study of Mus musculus with 24 samples.

Results

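The Period genes *Per1*, *Per2* and *Per3* and the cryptochrome genes *Cry1* and *Cry2* were taken by name from the expression tables of 24 mouse liver libraries. They are 5 of the 54733 genes listed in each table. RNA was measured as polyA RNA sequencing in livers of male C57BL/6 mice at 6 circadian times (CT2, CT6, CT10, CT14, CT18 and CT22), with 2 libraries for each genotype at each time. The WT group comprised 12 libraries, and the ΔRRE group comprised 12 libraries from mice homozygous for a deletion of both RREs in *Bmal1*, the binding elements for the REV-ERB and ROR nuclear receptors. The deletion was made in the germline by genome editing, so every tissue carried it, and the study used 1 mutant line where it named no other. No other allele or agent was given for either group, and the methods of the study state the ages of mice as a range for its tissue collections and not separately for these libraries. Those collections were made in constant darkness, for both genotypes, with times given as projected circadian time. No source used here ties a library to a single animal, so each p-value measures the spread between these libraries.

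CLOCK and BMAL1 bind E-box sequences and switch on the Period and cryptochrome genes, and the PER and CRY proteins return to the nucleus and repress CLOCK and BMAL1. This loop sets the daily rhythm of transcription in the liver as in most other tissues. A second loop passes through the REV-ERB and ROR receptors, which act on RREs of *Bmal1* and, among the members described here, of *Cry1*. D-box sequences, bound by the activators DBP, TEF and HLF and by the repressor NFIL3, are a further input to several Period genes.

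The letters below show where short clock elements stand beside transcript starts of these genes. They were read from RefSeq promoter windows of build GRCm38.p6, running from 250 bases before to 50 bases after a transcript start. RefSeq windows were matched for *Per1*, *Per3*, *Cry1* and *Cry2* (4 of 5 members) and not for *Per2*. Each line is printed 5′ to 3′ on the strand of the gene, and capitals mark the matched motif.
*Per1* E-box, chr11:69098774-69098797, + strand: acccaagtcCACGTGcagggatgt
*Cry1* E-box, chr10:85185100-85185123, - strand: gccggtggtCACGTGgggtgcatg
*Cry1* E′-box, chr10:85185119-85185142, - strand: cacttcagaAACGTGaggtgccgg
*Cry2* E′-box, chr2:92434221-92434244, - strand: catggtgggAACGTGagggggcgg
*Per3* first D-box, chr4:151044854-151044879, - strand: acccgcgcgTTATGTAAggtactcgg
*Per3* second D-box, chr4:151044807-151044832, - strand: cgcccgcggTTATGTAAcccccgccg

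The search covered 6 motifs on both strands: the E-box CACGTG, the E′-box CACGTT (which reads AACGTG on the other strand), the D-box forms TTATGTAA and TTACGTAA, and the RRE cores TAGGTCA for one form and TGGGTCA for another. Of 32851 promoters of the same length, 7.15% held CACGTG, 4.68% held CACGTT, 0.938% held TTATGTAA and 0.119% held TTACGTAA. The RRE cores stood in 2.61% (TAGGTCA) and 3.98% (TGGGTCA). Counted in bases from the transcript start, the first base of the *Per1* E-box lay at -166, and the 2 *Cry1* elements began at -60 and -79. The *Per3* D-boxes began at -205 and -158, and the *Cry2* E′-box at -166. None of these matches overlapped another. A second *Per1* promoter window held none of the 6 motifs. The transcript starts of the *Per1* windows, chr11:69098949 and chr11:69100152, lie inside the gene, whose span begins at 69095217. The sequence at the beginning of that span was not searched. These matches describe letters and not binding.

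On GRCm38, *Per1* (ENSMUSG00000020893) spans chr11:69095217-69109960 on the + strand, and the other 4 genes lie on the - strand. *Per2* (ENSMUSG00000055866) spans chr1:91415982-91459324, *Cry1* (ENSMUSG00000020038) chr10:85131700-85185064 and *Cry2* (ENSMUSG00000068742) chr2:92403646-92434043. *Per3* (ENSMUSG00000028957) spans chr4:151003652-151044665 and is overlapped by *Camta1* on the same strand. The extent of the overlap was not examined. *Camta1* lay between 1.27 and 3.36 FPKM over the 24 libraries, above *Per3* at CT2, so how reads in the overlap were divided between the genes is uncertain. *Cry2* overlaps the antisense gene D930015M05Rik, which lay between 0.0874 and 0.664 FPKM. The library kit keeps strand, and whether counting used it is not given in the sources used here.

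The values are FPKM, fragment counts divided by transcript length and by the mapped fragments of the library, so levels can be compared between genes. The deposited values carry no read counts, and the depth behind each value is unknown here. FPKM summed to between 554170 and 624746 per library. All 5 hepatocyte markers looked up were found, and their sum was at least 28488 FPKM in every library. Of the muscle markers (2 of 2 found) *Ckm* was listed at 0 throughout and *Acta1* reached 0.0289 FPKM in WT and 0.136 FPKM in ΔRRE. Of the exocrine pancreas markers (2 of 2 found) *Prss1* was listed at 0 throughout, whereas *Cela1* lay between 12.5 and 34.6 FPKM in WT and between 8.42 and 38.3 FPKM in ΔRRE. Red blood cell markers (2 of 2 found) summed to between 273 and 939 FPKM in WT and between 300.2 and 2765 FPKM in ΔRRE, and neutrophil markers (2 of 2 found) to between 0.183 and 6.12 and between 0.478 and 11.0 FPKM. Their part in the values below was not tested.

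*Bmal1*, named *Arntl* in the files, was examined first because its RREs were deleted. In WT it ranged from 0.0919 to 13.2 FPKM, with its 2 lowest libraries at CT10 and its 2 highest at CT2. In the 12 ΔRRE libraries it stayed between 2.096 and 4.21 FPKM. The ΔRRE libraries lay below WT at CT2 (log2 difference -1.91, adjusted p = 0.0238) and above WT at CT10 (3.33, adjusted p = 1.22e-05; limma, Benjamini-Hochberg over 11244 genes). The *Bmal1* libraries of the 2 genotypes overlapped at none of the 6 times, with ΔRRE below WT at CT2, CT18 and CT22 and above WT at CT6, CT10 and CT14, and CT2 and CT10 were the times that passed after adjustment.

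The Period genes and *Cry1* kept wide daily swings in both genotypes. *Cry2* varied less, with its highest mean over its lowest at 1.63 in WT and 2.03 in ΔRRE. Averaged over 24 libraries, *Cry2* was the highest of the 5 at 10.5 FPKM, followed by *Cry1* at 9.41, *Per2* at 7.93, *Per1* at 4.47 and *Per3* at 3.70 FPKM. Genes were tested where their mean over the libraries reached 1 FPKM, which left 11244 of them. Of these 62.9% had a lower mean than *Cry2* and 31.8% a lower mean than *Per3*. All 5 members passed that minimum.

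**Figure D1:**
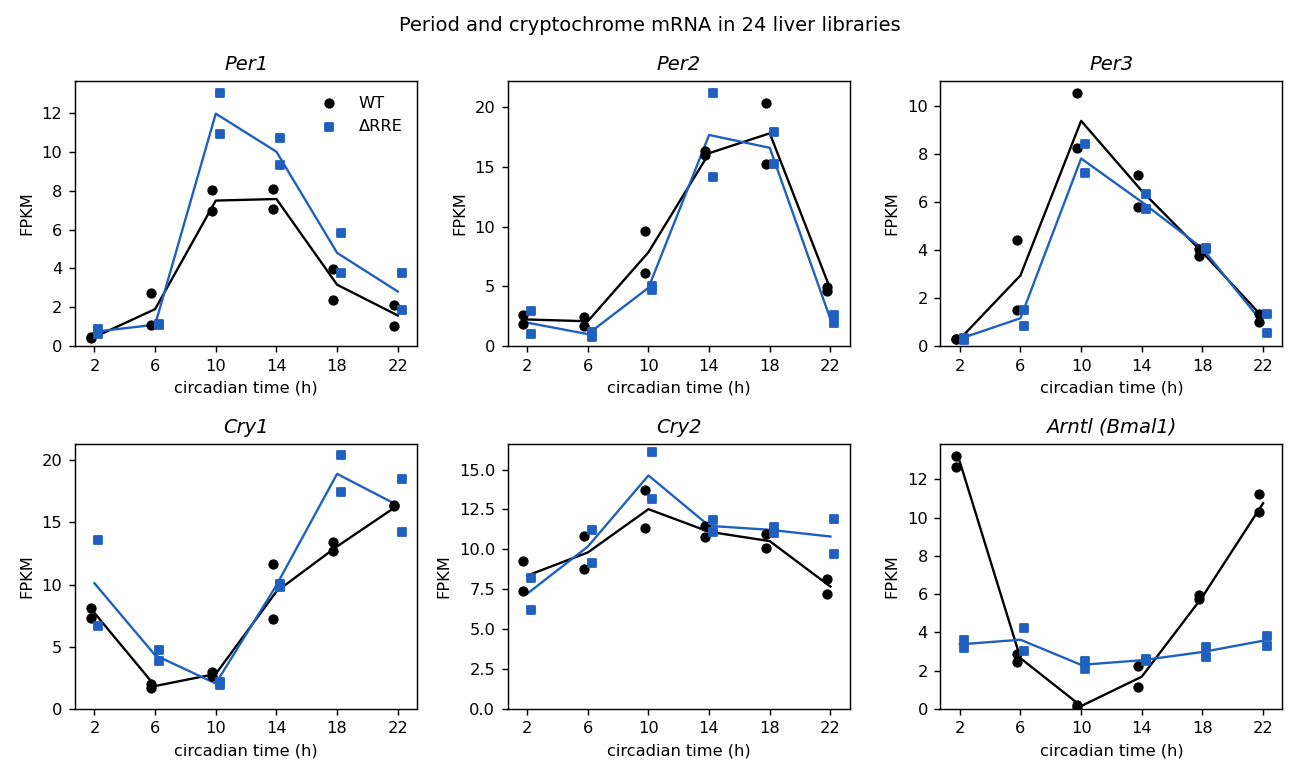
FPKM (vertical axis, from 0) against circadian time in hours for the 5 members and *Bmal1* (*Arntl*). Each point is a library (black circles WT, blue squares ΔRRE, set slightly apart sideways), and lines join the means of 2 libraries. *Bmal1* stays between 2.096 and 4.21 FPKM in ΔRRE, whereas *Per1*, *Per2*, *Per3* and *Cry1* rise and fall in both genotypes.

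*Per1* encodes a PER repressor. In WT the *Per1* libraries stood at 0.431 and 0.492 FPKM at CT2, 2.74 and 1.07 at CT6, 6.94 and 8.05 at CT10, 8.09 and 7.06 at CT14, 2.37 and 3.95 at CT18, and 1.02 and 2.14 at CT22. In ΔRRE they stood at 0.613 and 0.863 FPKM at CT2, 1.07 and 1.13 at CT6, 13.0 and 10.9 at CT10, 10.7 and 9.32 at CT14, 5.83 and 3.78 at CT18, and 3.74 and 1.88 at CT22. In WT the levels at CT10 and CT14 overlapped and stood apart from every other time. In ΔRRE no neighbouring pair in the order of the 6 levels overlapped, with CT10 highest and CT2 lowest. The ΔRRE libraries lay above both WT libraries at CT2, CT10 and CT14, and the genotypes overlapped at CT6, CT18 and CT22.

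*Per2*, which encodes the PER protein followed in many reporter studies, turned later. In WT the *Per2* libraries stood at 1.83 and 2.63 FPKM at CT2, 2.46 and 1.69 at CT6, 6.12 and 9.59 at CT10, 16.3 and 16.0 at CT14, 15.2 and 20.4 at CT18, and 4.90 and 4.59 at CT22. In ΔRRE they stood at 1.02 and 2.91 FPKM at CT2, 0.782 and 1.22 at CT6, 5.06 and 4.69 at CT10, 14.2 and 21.2 at CT14, 15.3 and 17.9 at CT18, and 1.91 and 2.61 at CT22. CT14 and CT18 overlapped as the highest times in each genotype. The ΔRRE libraries lay below both WT libraries at CT6, CT10 and CT22, on both flanks of the peak, and overlapped WT at CT2, CT14 and CT18.

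*Per3* encodes the PER protein with the least part in sustaining the loop. In WT the *Per3* libraries stood at 0.277 and 0.311 FPKM at CT2, 4.40 and 1.49 at CT6, 10.5 and 8.23 at CT10, 5.81 and 7.12 at CT14, 3.77 and 4.03 at CT18, and 1.02 and 1.36 at CT22. In ΔRRE they stood at 0.262 and 0.341 FPKM at CT2, 1.496 and 0.825 at CT6, 8.42 and 7.20 at CT10, 6.31 and 5.69 at CT14, 4.04 and 4.10 at CT18, and 0.553 and 1.34 at CT22. CT10 was highest and CT2 lowest in both genotypes, with no overlap with the next time in the order. The genotypes overlapped at every time except CT18, where the means were 3.90 and 4.07 FPKM and the log2 difference of 0.06 became -0.0440 once libraries were rescaled by the median of ratios, which moved all genes by -0.106 at that time.

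*Cry1* encodes the stronger CRY repressor and was the latest member. In WT the *Cry1* libraries stood at 7.33 and 8.10 FPKM at CT2, 1.69 and 1.97 at CT6, 2.63 and 2.98 at CT10, 11.7 and 7.19 at CT14, 12.7 and 13.4 at CT18, and 16.4 and 16.3 at CT22. In ΔRRE they stood at 6.63 and 13.6 FPKM at CT2, 3.86 and 4.76 at CT6, 1.90 and 2.18 at CT10, 10.0 and 9.83 at CT14, 20.4 and 17.4 at CT18, and 14.2 and 18.5 at CT22. The lowest time was CT6 in WT and CT10 in ΔRRE, and in each genotype these 2 times did not overlap. The highest was CT22 in WT, apart from CT18, and CT18 in ΔRRE, overlapping CT22. The ΔRRE libraries lay above WT at CT6 and CT18 and below WT at CT10.

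*Cry2* encodes the second CRY repressor. In WT the *Cry2* libraries stood at 9.29 and 7.41 FPKM at CT2, 10.9 and 8.76 at CT6, 13.7 and 11.3 at CT10, 11.5 and 10.7 at CT14, 10.1 and 10.9 at CT18, and 8.15 and 7.18 at CT22. In ΔRRE they stood at 6.20 and 8.23 FPKM at CT2, 11.2 and 9.15 at CT6, 16.1 and 13.1 at CT10, 11.9 and 11.1 at CT14, 11.0 and 11.4 at CT18, and 9.73 and 11.9 at CT22. In WT every neighbouring pair in the order of its 6 levels overlapped. In ΔRRE CT10 stood apart as the highest and CT2 as the lowest. The ΔRRE libraries lay above WT at CT22 and, by a log2 difference of 0.09 that became -0.0102 after the same rescaling, at CT18, and overlapped WT at the other times.

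The first question was whether each member followed a 24 h rhythm in each genotype. A 24 h wave was fitted per genotype to log2(FPKM + 0.1), a scale that understates the change of low genes. Its amplitude is the distance from the middle of the wave to its top. In WT 5 of 5 members passed the test (limma, adjusted p under 0.05), against 10.3% of the 11244 genes. In ΔRRE 4 of 5 passed, against 4.57% of all genes. The median amplitude of all tested genes was 0.20 in WT and 0.19 in ΔRRE.

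*Per3* had a log2 amplitude of 2.04 ± 0.25 (SE, 12 libraries) in WT and 2.14 ± 0.20 in ΔRRE (limma adjusted p = 0.00125 and 0.000528). *Per1* reached 1.82 ± 0.21 in WT and 1.89 ± 0.25 in ΔRRE (limma adjusted p = 0.000801 and 0.00392). *Per2* reached 1.71 ± 0.11 in WT and 2.09 ± 0.22 in ΔRRE (limma adjusted p = 4.96e-05 and 0.00130). The order among these 3 depended on the constant, since with 1 FPKM added *Per2* was wider than *Per3* (1.46 against 1.39 in WT and 1.70 against 1.41 in ΔRRE). In ΔRRE *Per3* and *Per2* were less than 1 SE apart, and *Per2* was the wider when either ΔRRE library at CT2 or CT10 was left out, or either of these times, and in WT without CT2. These 3 Period genes ranked 24th, 32nd and 47th of 11244 genes by amplitude in WT and 21st, 33rd and 23rd in ΔRRE. *Cry1* reached 1.53 ± 0.15 in WT and 1.46 ± 0.18 in ΔRRE (limma adjusted p = 0.000324 and 0.00234).

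*Cry2* had an amplitude of 0.32 ± 0.07 in WT (limma adjusted p = 0.0302) and 0.33 ± 0.10 in ΔRRE, where it did not pass (limma adjusted p = 0.148). By amplitude *Cry2* ranked 2855th of 11244 genes in WT and 2505th in ΔRRE. That a member passed in WT and not in ΔRRE does not show a difference, and the test of the difference is given below. The WT call of *Cry2* was lost, with limma adjusted p up to 0.0751, when any 1 of 6 WT libraries was left out: CT2 replicate 2, CT10 replicate 1 or 2, CT14 replicate 1, or CT22 replicate 1 or 2. It was also lost with no filter on low values or without CT2, CT6, CT10, CT14 or CT22. It held in 26 of 38 alternatives, with limma adjusted p from 0.0221 to 0.155. These 38 include the fits that left out a ΔRRE library, which cannot change a wave fitted to WT alone, so 26 of 38 overstates how firm the call is.

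The fitted peaks stood in the same order in both genotypes, namely *Cry2*, *Per3*, *Per1*, *Per2* and *Cry1*, although the earliest places were not firmly separated. In WT the fitted peaks stood at CT 11.9 ± 0.84 h for *Cry2*, 12.7 ± 0.47 h for *Per3*, 13.1 ± 0.43 h for *Per1*, 15.6 ± 0.26 h for *Per2* and 19.7 ± 0.36 h for *Cry1* (SE). In ΔRRE they stood at 13.0 ± 1.2 h, 13.4 ± 0.36 h, 13.9 ± 0.50 h, 15.5 ± 0.41 h and 20.3 ± 0.46 h in the same order. The gap from *Per2* to *Cry1* was 4.11 h in WT and 4.76 h in ΔRRE, and the gap from *Per1* to *Per2* was 2.47 h and 1.62 h. *Per3* and *Per1* were 0.369 h apart in WT, less than the SE of either peak, and 0.571 h apart in ΔRRE. Over the 24 fits that each left out 1 library, the order held in WT, and in ΔRRE the gap from *Cry2* to *Per3* ran from -0.269 to 0.681 h.

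**Figure D2:**
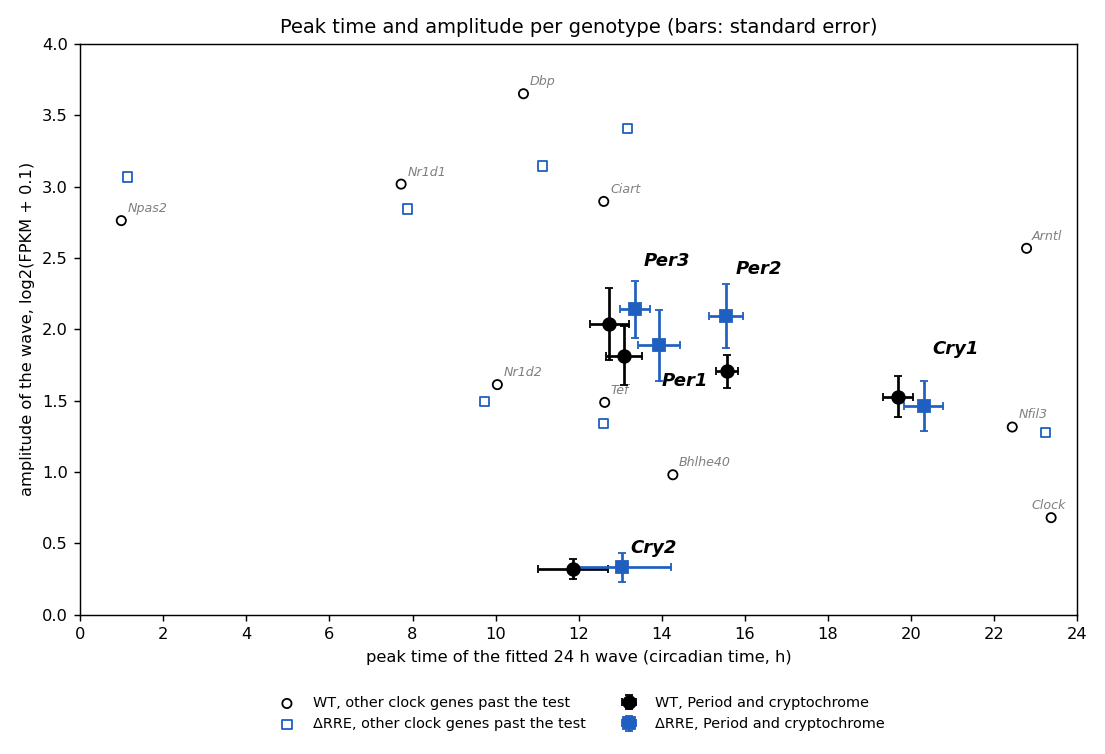
Amplitude of the fitted 24 h wave on the log2(FPKM + 0.1) scale (vertical axis) against its peak time in circadian hours (horizontal axis). Filled black circles are the members in WT and filled blue squares in ΔRRE, with bars of 1 standard error, and open symbols are other clock genes that passed the rhythm test in that genotype, with names beside the WT symbols. The filled pairs lie side by side, from *Cry2* at 11.9 and 13.0 h to *Cry1* at 19.7 and 20.3 h.

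The rise and fall was then located between neighbouring times, taking both genotypes together (4 against 4 libraries). Of 30 steps 9 passed in limma after adjustment. From CT2 to CT6 *Per3* rose by 2.18 on the log2 scale and *Cry1* fell by 1.57, while 0.267% of all genes passed. From CT6 to CT10, with 3.2% of all genes past the test, *Per1* rose by 2.69, *Per2* by 2.03 and *Per3* by 2.26. From CT10 to CT14 *Per2* rose by 1.44 and *Cry1* by 1.96, against 7.14% of all genes. *Per2* thus rose over both of these steps.

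From CT18 to CT22 *Per2* fell by 2.35 and *Per3* by 1.87, against 1.57% of all genes. No member passed from CT14 to CT18 (1.82% of all genes) or from CT22 to CT2 (0.0267%). Before adjustment 3 of 5 members passed from CT14 to CT18 (15.4% of all genes) and 4 of 5 from CT22 to CT2 (9.02%). *Per1* had log2 differences of -1.17 from CT14 to CT18 and -1.62 from CT22 to CT2 that did not pass (limma adjusted p = 0.0517 and 0.116). Both of these *Per1* steps, and the *Per3* step from CT22 to CT2, passed when either WT CT6 library was left out, with limma adjusted p down to 0.0203 for CT22 to CT2. Leaving out 1 library also brought *Per1* past the test from CT14 to CT18 (either CT22 library of WT or of ΔRRE), from CT22 to CT2 (WT CT22 replicate 1) and from CT2 to CT6 (WT CT6 replicate 2). *Cry1* passed from CT14 to CT18 without WT CT14 replicate 1 or either ΔRRE CT2 library, and from CT22 to CT2 without ΔRRE CT2 replicate 2.

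A single cosine did not describe all profiles. A 12 h term, shared by the genotypes, passed for *Per1* (amplitude 0.59, limma adjusted p = 0.0295) and *Per3* (0.59, limma adjusted p = 0.0229), 2 of 5 members against 3.05% of all genes. Its amplitude was 0.21 for *Per2*, 0.32 for *Cry1* and 0.14 for *Cry2*, none of which passed. The call of *Per1* was lost without WT CT22 replicate 2, ΔRRE CT10 replicate 1 or 2, or ΔRRE CT22 replicate 1. The call of *Per3* was lost with 1 FPKM added, which gave it an amplitude of 0.305. Both calls were lost when CT2, CT10, CT14, CT18 or CT22 was left out.

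The next question was whether the deletion altered these rhythms. In a joint fit of the 24 libraries, 0 of 5 members passed the test for a difference in rhythm in limma, at adjusted or at unadjusted p under 0.05, against 0.00889% of all genes after adjustment (1 gene, *Arntl*) and 2.84% before it. The exact permutation test over all divisions of the 4 libraries at each time into 2 and 2 gave two-sided p from 0.425 (*Per1*) to 0.695 (*Cry2*) for the wave, where 4.29e-05 is the smallest p it allows.

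The amplitude differed by 0.07 on the log2 scale for *Per1*, ΔRRE minus WT, with a 95% interval from -0.63 to 0.77. For *Per2* it differed by 0.39 (-0.16 to 0.93), for *Per3* by 0.10 (-0.59 to 0.80), for *Cry1* by -0.07 (-0.56 to 0.43) and for *Cry2* by 0.01 (-0.26 to 0.28). The intervals do not show that the amplitudes were equal. For *Bmal1* the difference was -2.27 (-2.96 to -1.58).

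The fitted peak differed, ΔRRE minus WT, by 0.823 h for *Per1* (-0.612 to 2.26 h) and 0.622 h for *Per3* (-0.656 to 1.90 h). For *Cry1* it differed by 0.623 h (-0.647 to 1.89 h), which became -0.00540 h without CT6 and -0.0246 h without CT10. For *Cry2*, whose rhythm did not pass in ΔRRE, it differed by 1.18 h (-1.95 to 4.30 h), which became -0.117 h without CT22. For *Per2* it differed by -0.0279 h (-1.08 to 1.02 h). Each interval held 0, and shifts of over 1 h in either direction lie within the *Per2* interval.

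The level averaged over the 6 times gave differences of both signs among the Period genes. *Per1* differed by 0.40 on the log2 scale, ΔRRE minus WT (95% interval 0.03 to 0.78), *Per2* by -0.50 (-0.84 to -0.16), and *Per3* by -0.30 (-0.66 to 0.06). *Cry1* differed by 0.28 (-0.02 to 0.58) and *Cry2* by 0.11 (-0.05 to 0.28). In limma 0 of 5 members passed after adjustment, and 0 of all genes did (adjusted p = 0.527 for *Per1* and 0.395 for *Per2*). At an unadjusted p under 0.05 *Per1* and *Per2* passed, 2 of 5 against 8.91% of all genes (7.16% higher in ΔRRE and 1.75% lower), and their exact permutation p was 0.0488 and 0.0127.

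The balance of *Per2* to *Per1* within a library does not depend on the scale of that library. In WT the ratio of *Per2* to *Per1* FPKM was 4.23 and 5.34 at CT2, 0.900 and 1.58 at CT6, 0.882 and 1.19 at CT10, 2.02 and 2.26 at CT14, 6.43 and 5.16 at CT18, and 4.82 and 2.15 at CT22. In ΔRRE it was 1.66 and 3.37 at CT2, 0.732 and 1.08 at CT6, 0.389 and 0.430 at CT10, 1.32 and 2.27 at CT14, 2.62 and 4.75 at CT18, and 0.510 and 1.39 at CT22. The mean ratio was lower in ΔRRE at 6 of 6 times, and the libraries did not overlap at 4 of them (CT2, CT10, CT18 and CT22), where single genes did not overlap for 29.6%, 32.7%, 31.2% and 37.1% of all genes. The mean ratio of *Per1* to *Per3* was higher in ΔRRE at 6 of 6 times, and the libraries did not overlap at 3 of them (CT2, with means of 1.57 in WT and 2.44 in ΔRRE, CT10, with 0.818 and 1.53, and CT14, with 1.19 and 1.67). Single genes did not overlap for 29.6%, 32.7% and 28.4% of all genes at these times. No such share was computed for ratios, so the shares of single genes are not a background for either ratio. At CT22 the higher mean rested on 1 library, with ratios of 6.77 and 1.40 in ΔRRE and 0.993 and 1.58 in WT. The *Per2* to *Per1* ratio was singled out after the values of *Per1* and *Per2* were seen, and it is given as a description. The *Per1* to *Per3* ratio shares *Per1* with it, so it is not separate evidence and is also a description.

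The ratio of *Cry1* to *Cry2* moved over the day in both genotypes. Its mean ran from 0.190 at CT6 to 2.14 at CT22 in WT, and from 0.142 at CT10 to 1.69 at CT18 in ΔRRE. The ΔRRE libraries lay above WT at CT6 and CT18 and below WT at CT10 and CT22, 4 of 6 times without overlap. Single genes did not overlap for 28% of all genes at CT6, 32.7% at CT10, 31.2% at CT18 and 37.1% at CT22. No such share was computed for ratios, so the count is a description.

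**Figure D3:**
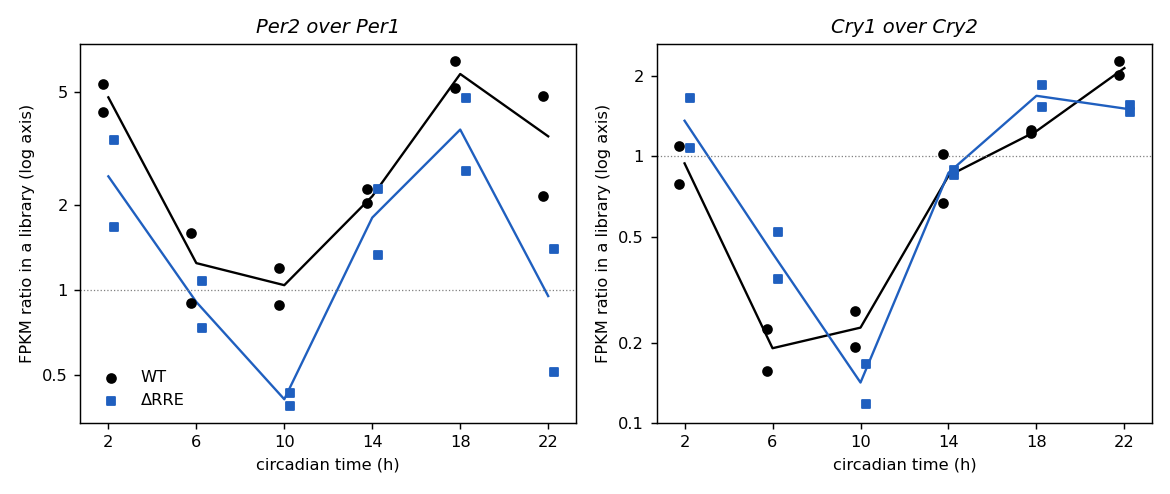
Ratio of FPKM within each library (vertical, log axis) against circadian time in hours, for *Per2* over *Per1* (left) and *Cry1* over *Cry2* (right). Points are libraries (black circles WT, blue squares ΔRRE) and lines join the means of 2. *Per2* over *Per1* has the lower mean in ΔRRE at 6 of 6 times, and *Cry1* over *Cry2* is higher in ΔRRE at CT6 and CT18 and lower at CT10 and CT22.

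Genotypes were also compared at each time. With 2 against 2 libraries a permutation test cannot pass, so the 12 groups shared an estimate of the spread in limma. Of 30 comparisons 0 passed after adjustment and 5 at an unadjusted p under 0.05. *Cry1* at CT6 had the largest difference of the 30 on the log2(FPKM + 0.1) scale, with a WT mean of 1.83 FPKM and a mean of 4.31 FPKM in the ΔRRE libraries, a log2 difference of 1.19 (95% interval 0.62 to 1.76, adjusted p = 1). Leaving out any 1 library kept it between 1.04 and 1.34. By the ratio of mean FPKM, ΔRRE over WT, *Per3* at CT6 (0.394) lay further from 1 than *Cry1* at CT6 (2.36).

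*Per2* was lower by -0.99 at CT6 (-1.78 to -0.20) and by -1.05 at CT22 (-1.85 to -0.26), and *Per3* by -1.14 at CT6 (-2.01 to -0.26). *Cry2* at CT22 was higher by 0.49 (0.10 to 0.87). At CT6 3 of 5 members thus passed before adjustment, against 3.28% of all genes, and at CT22 2 of 5, against 4.66%. The *Per3* value at CT6 rested on WT replicate 1, since without it the difference was -0.39 and without WT replicate 2 it was -1.89. The *Per1* difference at CT6, -0.60, was 0.04 without that WT library.

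Before adjustment 0 of 5 members passed at CT2 (2.57% of all genes), CT10 (6.16%), CT14 (4.63%) and CT18 (3.61%). After adjustment the shares of all genes that passed were 0.00889% at CT2, 0 at CT6, 0.0178% at CT10, 0.0267% at CT14, 0.00889% at CT18 and 0 at CT22. An interaction of genotype and time, with no wave assumed, passed for 0 of 5 members after adjustment (0.0356% of all genes) and for 1 of 5, *Cry1*, before it, against 3.31% of all genes.

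The ΔRRE libraries stood entirely above or below WT in 12 of the 30 comparisons, 8 above and 4 below. By time these were 1 of 5 members at CT2 (29.6% of all genes), 2 at CT6 (28%), 3 at CT10 (32.7%), 1 at CT14 (28.4%), 3 at CT18 (31.2%) and 2 at CT22 (37.1%). The share over the 30 comparisons was 40.0%, near the background at the single times. These background shares are not split by direction, so the 8 above and 4 below are a description. The median log2 difference of all tested genes was positive at every time, from 0.004 at CT10 to 0.09 at CT18. Among the 8 above, *Per3* and *Cry2* at CT18 changed sign after rescaling by the median of ratios.

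**Figure D4:**
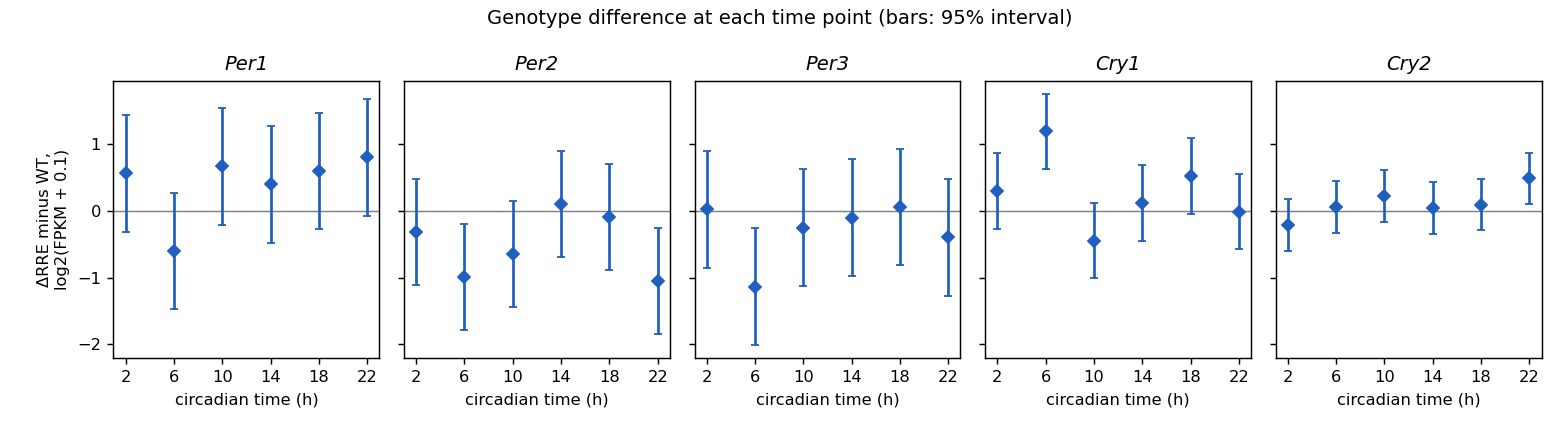
Difference between ΔRRE and WT on the log2(FPKM + 0.1) scale (vertical axis) at each circadian time in hours, with 2 libraries per genotype and bars of the 95% interval from limma before adjustment. The interval lies off 0 for *Cry1* at CT6 (1.19), *Per2* at CT6 and CT22 (-0.99 and -1.05), *Per3* at CT6 (-1.14) and *Cry2* at CT22 (0.49), and none of the 30 passes after adjustment.

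Several members differed widely between the 2 libraries of a group. Between the WT CT6 libraries *Per1* differed by 1.28 and *Per3* by 1.502 on the log2 scale, more than 96.4% and 97.5% of genes did there. Between the ΔRRE CT2 libraries *Per2* differed by 1.43 and *Cry1* by 1.02, more than 98.1% and 95.5% of genes. *Per1* differed by 1.002 between the WT CT22 libraries (95.8%), and at CT22 in ΔRRE *Per1* differed by 0.96 (95.3%) and *Per3* by 1.14 (97.1%), in opposite directions between the same libraries. The median difference over all tested genes lay between 0.21 and 0.27 in the 12 groups.

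**Figure D5:**
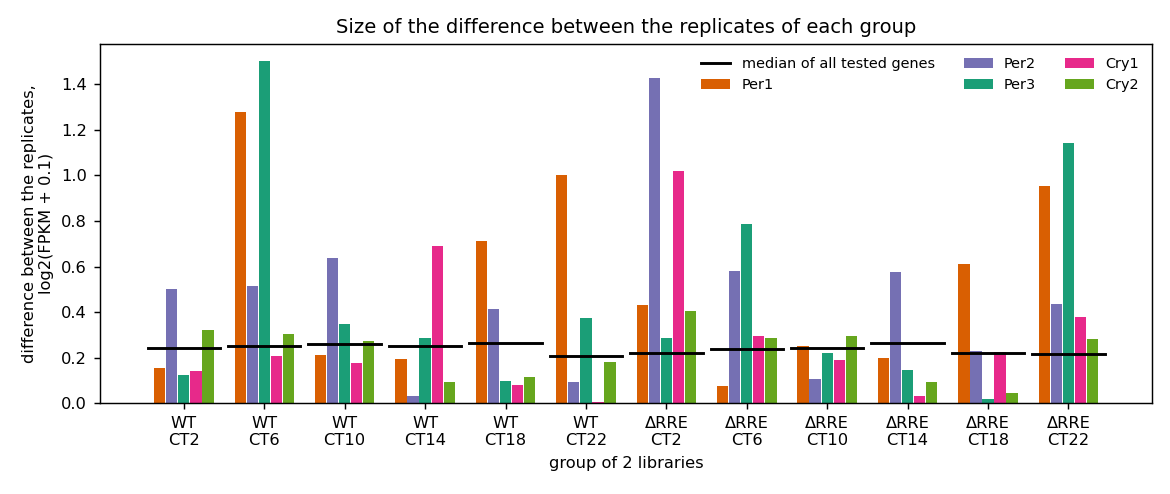
Size of the difference between the 2 libraries of each group (vertical axis, log2(FPKM + 0.1), from 0) for the 5 members in the 12 groups. Black lines mark the median over all tested genes. The tallest bars are *Per3* (1.502) and *Per1* (1.28) at WT CT6 and *Per2* (1.43) at ΔRRE CT2.

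Among the members, *Per1* and *Per3* ran most alike over the 24 libraries (Pearson r = 0.900 of log2 values), and *Cry1* and *Cry2* least (r = -0.328). These points share their libraries and their times of day, so r is a description. The genes outside the members most like *Per1* were *Usp2* (0.938), *Ciart* (0.930) and *Tef* (0.907), and those most like *Per3* were *Tef* (0.972), *Ciart* (0.960) and *Usp2* (0.928). *Ciart* encodes a repressor of CLOCK and BMAL1, *Tef* a D-box activator and *Usp2* a ubiquitin protease. *Per2* ran most like *Marveld1* (0.948), *Noct* (0.930), which encodes nocturnin, and *Homer2* (0.917). *Cry1* ran most like the integrin gene *Itga5* (0.916), *Lonrf3* (0.895) and 4930430F08Rik (0.869), and *Cry2* most like the kinase genes *Mknk2* (0.824) and *Pim3* (0.808) and *Tef* (0.793).

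Of 19 other genes of the clock loop looked up, 18 were tested. In WT 10 of 18 passed the rhythm test, against 10.3% of all genes, and in ΔRRE 7 of 18, against 4.57%. The activators *Arntl* and *Clock* and the repressor *Bhlhe40* passed in WT and not in ΔRRE. A difference in rhythm passed for 1 of 18, *Arntl*, against 0.00889% of all genes. *Dbp*, which encodes a D-box activator, peaked at CT 10.7 h in WT and 11.1 h in ΔRRE, before the Period genes. *Nr1d1*, which encodes REV-ERBα, peaked at 7.72 h and 7.88 h, and *Npas2*, which encodes a relative of CLOCK, at 0.987 h and 1.13 h. The D-box repressor gene *Nfil3* peaked after *Cry1*, at 22.4 h in WT and 23.2 h in ΔRRE. *Dbp* and *Tef* also passed the test for the 12 h term, 2 of 18 against 3.05% of all genes.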

How the data were processed

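The submitters' processing notes name Trimmomatic 0.39, HISAT2 2.1.0, StringTie 1.3.5 and build mm10, and the values deposited by the authors are FPKM per gene and library. FPKM summed to between 554170 and 624746 per library. Read depth is unknown here.

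Files were matched to groups through their labels. Genes were kept where the mean of the 24 libraries reached 1 FPKM (11244 of 54733) and tested on log2(FPKM + 0.1) with limma 3.58.1 (R 4.3.3, intensity trend) and Benjamini-Hochberg adjustment over all of them within each comparison. Rhythms were cosine and sine terms of 24 h, standing in for BIO_CYCLE, which the study used. Scripts were tested on simulated data. The exact permutation tests were two-sided, and that of the spread of the 6 differences was added after the data were seen. A table of the whole series was not used here.

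Members and gene lists were chosen with earlier results of these data known. The text names the 5 members, genes by role among 18 other tested clock genes (*Arntl* included), and the 3 genes with the highest Pearson r to each member. Alternatives changed the constant, the filter, library scaling, the variance prior, the replicate block, the model of time, the criteria for a rhythm, and the libraries or times included.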

Additional observations from a re-analysis of the deposited data

Results flagged for a closer look

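*Cry1* differed between the genotypes in opposite directions at neighbouring times. At CT6 the ratio of the ΔRRE to the WT mean FPKM was 2.36, with both ΔRRE libraries above both WT libraries. At CT10 it was 0.726, with both ΔRRE libraries below both WT libraries. The difference between these times alone was not tested. For the interaction of genotype and time over the 6 times, limma gave *Cry1* p = 0.0118 (adjusted p = 0.9999 over 11244 genes), whereas an exact permutation test of the spread of the 6 differences, added after the data were seen, gave a two-sided p = 0.2004. Groups of 2 libraries are too small for a test of single outlying libraries.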

How the results depend on the processing

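Of the 5 members rhythmic in WT, 4 to 5 passed when 1 library was left out, 4 with no filter, with time as a factor or without CT2, CT6, CT10, CT14 or CT22, and 3 with a filter of mean 5 FPKM, which *Per1* and *Per3* do not pass. Of the 4 in ΔRRE, 2 passed with that filter. Of the 9 steps, 9 to 13 passed with 1 library left out and 5 with that filter. The 12 h term passed for 2 members, for 1 to 2 with 1 library left out, for 1 with 1 FPKM added, and for 0 with no filter, with that filter, or without CT2, CT10, CT14, CT18 or CT22. The counts of 0 for differences in rhythm, level, interaction and single times were 0 under all 37 alternatives of each. Whether replicate numbers pair the libraries was not settled. The r of deviations ran from -0.138 to 0.305 over 66 pairs of groups, with a median of 0.0669 and 20 over 0.1. The replicate block left the counts at 5, 4, 9 and 2.

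Under at least 1 alternative 23 of 75 signed results changed sign, of which 0 had passed a test and 0 passed after the change. The largest of them as reported were -0.60 on the log2 scale (*Per1* at CT6) and 1.18 h (*Cry2* peak time). The cause was not tested. After rescaling by the median of ratios, *Per3* at CT2 was -0.00158, *Per3* at CT18 was -0.0440, *Cry2* at CT14 was -0.00395 and *Cry2* at CT18 was -0.0102. Without CT2, *Cry2* amplitude was -0.16. Without CT6, *Per1* amplitude was -0.0872, *Cry1* amplitude was 0.36 and *Cry1* peak time (h) was -0.00540. Without CT10, *Per1* amplitude was -0.0137, *Cry1* peak time (h) was -0.0246 and *Cry2* amplitude was -0.0349. Without CT14, *Per2* peak time (h) was 0.103. Without CT22, *Per2* peak time (h) was 0.538, *Per3* amplitude was -0.0581, *Cry1* amplitude was 0.15 and *Cry2* peak time (h) was -0.117. With 1 library left out, ΔRRE minus WT ran from -0.12 to 0.16 for *Per3* at CT2, -1.24 to 0.0374 for *Per1* at CT6, -0.10 to 0.21 for *Cry2* at CT6, -0.24 to 0.0447 for *Per3* at CT14, -0.23 to 0.46 for *Cry1* at CT14, -0.30 to 0.12 for *Per2* at CT18, -1.04 to 0.39 for *Per2* at CT2, -0.21 to 0.81 for *Cry1* at CT2, -0.000893 to 0.0946 for *Cry2* at CT14, -0.19 to 0.39 for *Per2* at CT14, -0.97 to 0.17 for *Per3* at CT22 and -0.20 to 0.18 for *Cry1* at CT22. The steps ran from -0.11 to 0.17 for *Per2* from CT14 to CT18 and -0.0398 to 0.15 for *Cry1* from CT18 to CT22. The differences in rhythm ran from -0.0840 to 0.0764 for *Cry2* amplitude, -0.262 to 0.323 for *Per2* peak time (h), -0.21 to 0.0351 for *Cry1* amplitude, -0.0580 to 0.29 for *Per3* amplitude and -0.0940 to 0.22 for *Per1* amplitude.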
